A study of Mus musculus with 12 samples.

Results

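The haemoglobin and erythroid genes described here are 6 of the 54532 genes in the count table: the adult alpha-globin genes *Hba-a1* and *Hba-a2*, the adult beta-globin genes *Hbb-bs* and *Hbb-bt*, the haem synthesis gene *Alas2* and the erythropoietin receptor gene *Epor*. They were taken by name, a rule that uses no measured value, although earlier results of these data were known when the set was proposed, and all 6 passed the cutoff on low counts and were among the 24642 genes tested. The data are RNA-seq counts per gene from whole kidneys of 12 mice at 18 days of age, labelled C57BL/6 (a C57BL/6 J background in the study's methods), with 3 mice in each of 4 groups and 1 library per mouse. Every mouse carried the hypomorphic *Pkd1* RC allele opposite a floxed *Pkd1* allele. In the noncystic mice, labelled control, the floxed allele was intact (*Pkd1* RC/F, written RC/+ in the study), and in the cystic mice it was removed by Ksp-Cre (*Pkd1* RC/-), a Cre driven by the Ksp-cadherin promoter in kidney tubule epithelium. Mice of either kind were *Pkd2* +/+ or *Pkd2* Δ17/Δ17, labelled Pkd2_UTR_DD, which lack the binding motif for the microRNA miR-17 in the 3′-UTR of both *Pkd2* alleles.

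Red blood cells carry oxygen on haemoglobin, a tetramer of alpha- and beta-globin chains that each hold a haem group. Young red cells still contain globin mRNA, and whole-kidney RNA includes that of the blood left in the vessels. The kidney is also the main source of erythropoietin, the hormone that acts through its receptor on red cell precursors in the marrow and spleen. The frozen kidneys are not described as perfused in the sources used here, and the blood content of each kidney was not measured.

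Total counts ran from 18800307 to 24453033 per mouse, and levels are given as CPM, a library-size-scaled count that was further scaled by TMM factors, which ran from 0.933 to 0.972 in noncystic and from 1.04 to 1.08 in cystic kidneys. The 10 most abundant genes held 8.91% to 9.76% of the counts in noncystic and 4.86% to 5.93% in cystic kidneys. Libraries of the same group differed by far more than sampling noise (chi-square per degree of freedom of 9.65 to 26.8), so none was the same library sequenced again. This check cannot tell whether libraries came from the same kidney or from different ones. The deletion removes only a short motif and does not remove the gene, so a gene-level count does not show it directly. *Pkd2* stood at 193.8 to 219 CPM in noncystic +/+, 270.5 to 285.8 CPM in noncystic Δ17/Δ17, 213.2 to 232.9 CPM in cystic +/+ and 307.1 to 336.6 CPM in cystic Δ17/Δ17 kidneys. The mice with the deletion were thus above those without it in both settings, and the difference passed the test in cystic (log2 fold change 0.53, adjusted p = 0.0025, edgeR) and not in noncystic kidneys (0.40, adjusted p = 0.771, edgeR).

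The alpha-globin genes lie in a cluster on chromosome 11 of GRCm38 (*Hba-a1*, ENSMUSG00000069919, chr11:32283511-32284465, and *Hba-a2*, ENSMUSG00000069917, chr11:32296489-32297298, both on the forward strand). The beta-globin genes lie on chromosome 7 (*Hbb-bs*, ENSMUSG00000052305, chr7:103826534-103828096, and *Hbb-bt*, ENSMUSG00000073940, chr7:103812524-103813996, both on the reverse strand). *Alas2* (ENSMUSG00000025270, chrX:150547375-150570638, forward) encodes the red cell form of the enzyme of the opening step of haem synthesis, and *Epor* (ENSMUSG00000006235, chr9:21958897-21963506, reverse) encodes the erythropoietin receptor. The coding sequences of the alpha pair differed at 1 of 429 bases and those of the beta pair at 1 of 444, and the translated proteins, of 142 and 147 residues, did not differ within a pair. Of all stretches of 100 bases, 56.5% in *Hba-a1*, 74.5% in *Hba-a2*, 62.6% in *Hbb-bs* and 54.8% in *Hbb-bt* were identical in the partner gene. Reads that lie wholly within such stretches do not map to a unique place, so the split of counts within each pair is uncertain. The study's sequencing was paired-end, and a longer read or its mate can reach beyond a shared stretch. The share of reads affected was not measured. *Alas2* shares exon sequence with *Apex2* on the opposite strand over 11.0% of its stretches, while *Epor* shared none with another gene. *Apex2* stood at 10.78 to 14.23 CPM in the 12 kidneys and did not pass the test in any comparison.

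Genes of this kind are known to be read from promoters with motifs for GATA and Krüppel-like factors beside the general CCAAT and TATA boxes, and the sequences below are shown because they are what the 6 promoters do and do not share. All 6 promoters were matched by symbol in RefSeq (GRCm38.p6) and searched on both strands from 250 bases before to 50 bases after the start site. The GATA motif (AGATAA and the forms of it that begin with T or end with G) was found in 5 of 6 and in 29.8% of all 32851 promoters, and the missing member was *Hbb-bt*. Windows of 30 bases with the GATA match in capitals, written 5′ to 3′ on the strand of the gene, where TTATCT is the motif on the opposite strand, were as follows.
Hba-a1, chr11:32283477-32283506: tgtccgggcaacTGATAAggattccctgca
Hbb-bs, chr7:103828121-103828150: tgttctctgcacAGATAAggacaaacatta
Alas2, chrX:150547319-150547348: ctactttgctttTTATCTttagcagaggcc
Epor, chr9:21963613-21963642: ggtggctgtagcTTATCTgtccccagcctg
The *Hba-a2* window (chr11:32296294-32296323) has the same letters as that of *Hba-a1*.

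The TATA motif (TATAAA, or the same with G as its last letter) was found in 5 of 6 members, *Epor* being the exception, and in 18.8% of all promoters. In the 4 globin promoters it began 27 to 30 bases before the start site, whereas the *Alas2* matches lay farther away, at -209 and -207. CCAAT was found in the 4 globin promoters only among the members, and in 37.4% of all. The CACCC motif of Krüppel-like factors (CCNCACCC, where N is any base) was found in *Alas2*, *Epor*, *Hbb-bs* and *Hbb-bt*, and in 16.6% of all. Matches to different motifs were counted separately, also where they overlapped. The windows around the TATA and CACCC matches of the beta pair, with the match in capitals, are shown because they differ between genes whose coding sequences are almost identical.
Hbb-bs TATA, chr7:103827940-103827969: cagggcagagcaTATAAGgtgaggtaggat
Hbb-bt TATA, chr7:103813934-103813963: cagcattgggtaTATAAAgctgagcagggt
Hbb-bs CACCC, chr7:103828004-103828033: gattccgtagagCCACACCCtggtaagggc
Hbb-bt CACCC, chr7:103814013-103814042: tcatctctgaagCCTCACCCtgcagggtaa

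Cystic *Pkd2* +/+ kidneys held less globin and *Alas2* mRNA than noncystic *Pkd2* +/+ kidneys, and more *Epor* mRNA. The 4 globin genes fell 2.38- to 2.94-fold and *Alas2* fell 3.31-fold, while *Epor* rose 1.43-fold. All 6 genes passed the test, 5 of them in the lower and 1 in the higher direction. Among all genes tested, 31.1% passed in this comparison, 14.2% lower and 16.9% higher. The higher calls were 54.4% of all calls with TMM factors and 71.69% with library totals alone, which moved the median log2 fold change of all genes from 0.02 to 0.18, and the directions of the 6 genes held under both scalings. The counts do not tell fewer cells of a type in the kidney from less mRNA per cell.

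*Hbb-bs* was the most abundant of the 6, with 327, 490.7 and 542.5 CPM in the noncystic +/+ mice 19, 20 and 21. The cystic +/+ mice 25, 26 and 27 had 144.7, 201.7 and 166.2 CPM. The highest cystic kidney was thus below the lowest noncystic one. The mean was 453.4 ± 112.5 CPM in noncystic and 170.9 ± 28.8 CPM in cystic kidneys (SD, n = 3 each), a log2 fold change of -1.41 (SE 0.27, adjusted p = 0.000587 in the quasi-likelihood test of edgeR, adjusted over all genes by Benjamini-Hochberg).

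*Hbb-bt* had 44.03, 67.75 and 66.94 CPM in the noncystic and 17.58, 27.61 and 15.77 CPM in the cystic +/+ mice. Again no cystic kidney reached a noncystic one. Its log2 fold change was -1.55 (SE 0.31, adjusted p = 0.000774, edgeR). *Hba-a1*, the more abundant of the alpha pair as counted, had 173.9, 247 and 289.6 CPM against 70.35, 98.69 and 107.8 CPM, and fell by 1.36 on the log2 scale (SE 0.28, adjusted p = 0.00115, edgeR). *Hba-a2* had 31.62, 40.32 and 40.08 CPM against 10.45, 17.87 and 18.98 CPM, and fell by 1.25 (SE 0.28, adjusted p = 0.00249, edgeR). Mouse 19 was the lowest noncystic +/+ kidney for all 4 globin genes.

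*Alas2* makes the haem precursor that red cell precursors need in step with globin. It had 14.38, 25.83 and 29.76 CPM in the noncystic and 7.588, 7.147 and 6.356 CPM in the cystic +/+ mice. The cystic kidneys were close to each other and all below mouse 19. The log2 fold change was -1.73 (SE 0.30, adjusted p = 0.000285, edgeR). For the 5 genes that fell every cystic kidney was below every noncystic one, which 19.7% of all genes tested showed.

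*Epor* had 8.204, 11.63 and 9.97 CPM in the noncystic and 15.22, 13.41 and 13.98 CPM in the cystic +/+ mice, from 158 to 393 counts per library. All 3 cystic kidneys were above all 3 noncystic ones, so the groups overlapped for none of the 6 genes, and 41.7% of all genes tested had no overlap in one direction or the other. The log2 fold change was 0.52 (SE 0.18, adjusted p = 0.0348, edgeR). This call was lost when mouse 19, 21, 25 or 27 was left out (adjusted p = 0.154, 0.0895, 0.0907 and 0.0686, edgeR).

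**Figure D1:**
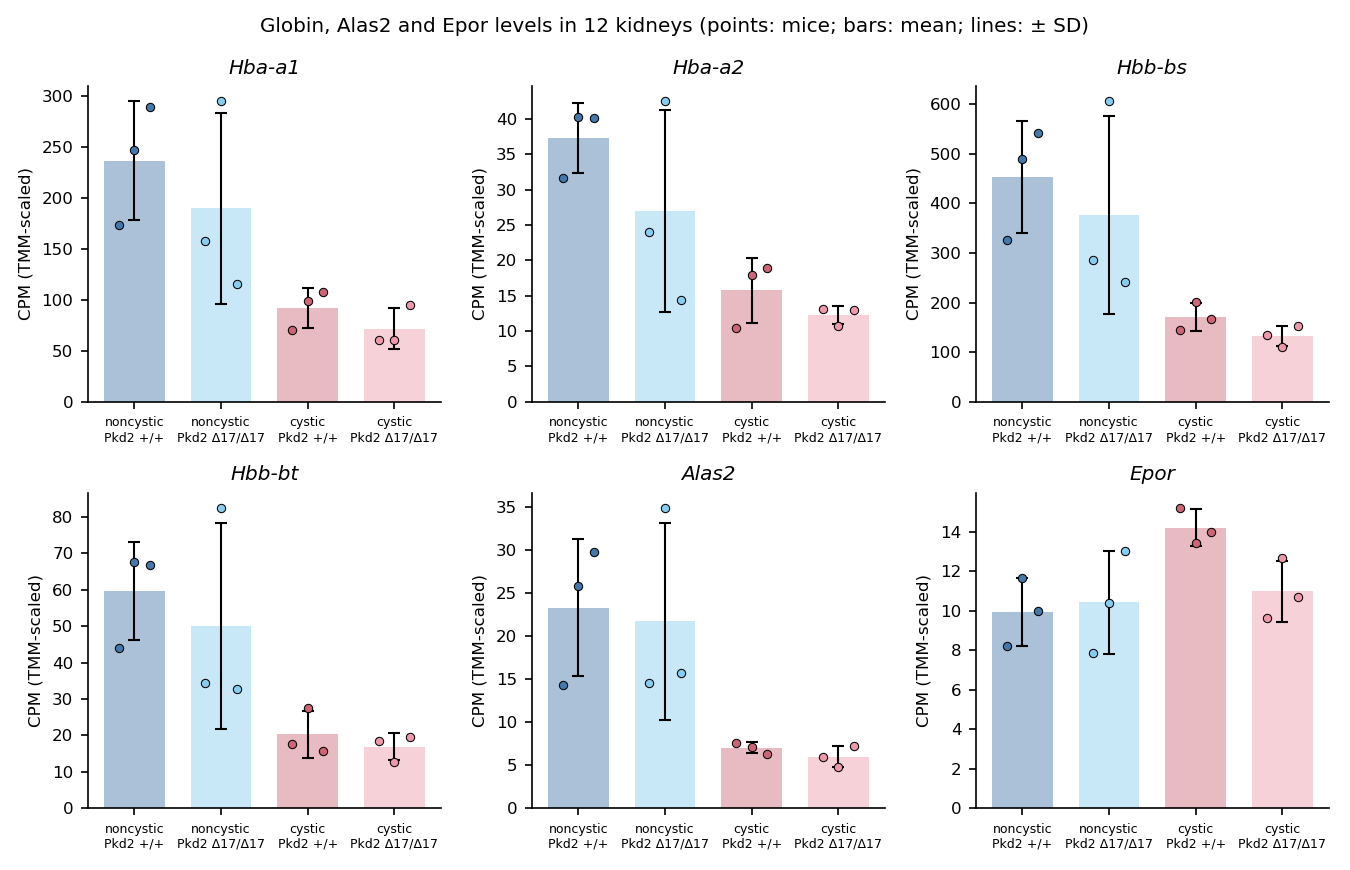
CPM of the 6 genes (vertical axes, from 0, each panel on its own scale) in the 4 groups (horizontal axes). Points are mice, bars the mean and lines ± SD (n = 3). The cystic groups lie lowest for the globin genes and *Alas2*, for which mouse 23 is the high point of the noncystic Δ17/Δ17 group, and cystic +/+ kidneys lie highest for *Epor*.

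In mice with the *Pkd2* motif deletion, globin and *Alas2* mRNA were again lower in cystic than in noncystic kidneys, by 2.20- to 2.95-fold for the globin genes and 3.61-fold for *Alas2*. *Epor* did not pass the test. The count was 5 of 6 genes called, all lower. Of all genes tested, 10.2% were called lower and 12.8% higher (55.71% of the calls higher, and 76.3% with library totals). No mouse of this comparison was in the +/+ one.

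*Hbb-bs* had 285.1, 606.6 and 241.1 CPM in the noncystic Δ17/Δ17 mice 22, 23 and 24. The cystic Δ17/Δ17 mice 28, 29 and 30 had 135.3, 110.9 and 151.9 CPM. The noncystic kidneys were spread widely and mouse 23 was far above the other two, yet all 3 stood above the cystic ones. The log2 fold change was -1.51 (SE 0.27, adjusted p = 0.000532 by edgeR).

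*Alas2* had 14.55, 34.97 and 15.68 CPM in the noncystic and 6.009, 4.842 and 7.215 CPM in the cystic Δ17/Δ17 mice. It showed the same high mouse 23 and no overlap between groups. The log2 fold change was -1.85 (SE 0.31, adjusted p = 0.0003, edgeR). *Hba-a1* had 158.4, 295.4 and 115.8 CPM against 60.24, 60.55 and 95 CPM, *Hbb-bt* had 34.33, 82.6 and 32.9 CPM against 18.41, 12.67 and 19.72 CPM, and *Hba-a2* had 24.09, 42.55 and 14.36 CPM against 13.08, 10.76 and 13.04 CPM. The adjusted p was 0.00144 for *Hba-a1*, 0.00126 for *Hbb-bt* and 0.00805 for *Hba-a2* (edgeR). Mouse 24 came within a small distance of the cystic kidneys for *Hba-a2*, but no group overlapped for these 5 genes, as was so in the lower direction for 17.7% of all genes tested.

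*Epor* had 7.847, 10.37 and 13.04 CPM in the noncystic and 9.615, 12.67 and 10.68 CPM in the cystic Δ17/Δ17 mice. The groups overlapped, and the log2 fold change of 0.08 (SE 0.18) did not pass the test (adjusted p = 0.822, edgeR). Without mouse 23, 4 of the 6 genes were called, and *Hba-a2* was lost at a log2 fold change of -0.66 (adjusted p = 0.066, edgeR).

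None of the 6 genes passed the test for the deletion of the *Pkd2* motif, in either setting. In noncystic kidneys the log2 fold changes of Δ17/Δ17 against +/+ were -0.32 for *Hba-a1*, -0.47 for *Hba-a2*, -0.26 for *Hbb-bs*, -0.25 for *Hbb-bt*, -0.10 for *Alas2* and 0.07 for *Epor*, with SEs of 0.18 to 0.29. Single mice moved these values: the 4 globin genes ran from -0.79 to -0.96 without mouse 23 and from -0.02 to -0.16 without mouse 24. None was called (adjusted p from 0.778 to 0.961, edgeR), the groups overlapped for all 6, and 0.00406% of all genes, 1 gene, was called. With limma-trend and DESeq2 the count of members called was also 0. No member had an unadjusted p under 0.05 with edgeR for the deletion in noncystic kidneys, in cystic kidneys or in the test of their difference.

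In cystic kidneys the log2 fold changes of Δ17/Δ17 against +/+ were -0.36 for *Hba-a1*, -0.35 for *Hba-a2*, -0.36 for *Hbb-bs*, -0.26 for *Hbb-bt*, -0.22 for *Alas2* and -0.37 for *Epor*, with SEs of 0.18 to 0.32. No member was called by edgeR, limma-trend or DESeq2, against 2.23% of all genes with edgeR. Without the cutoff on low counts edgeR called *Hba-a1* and *Hbb-bs* lower here (adjusted p = 0.00344 and 0.00462), and *Hba-a2* lower for the deletion in noncystic kidneys (adjusted p = 0.036). The mice overlapped for the globin genes and *Alas2*. *Epor* was below the +/+ mice in all 3 Δ17/Δ17 mice, a pattern of 10.2% of all genes, and did not pass the test (adjusted p = 0.351, edgeR). No other member had an adjusted p below 0.599 (edgeR).

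The test of the difference between the deletion's effect in cystic and in noncystic kidneys called 0 of the 6 genes with edgeR, limma-trend and DESeq2, and 0.0122% of all genes with edgeR. Its log2 values were -0.04 for *Hba-a1*, 0.11 for *Hba-a2*, -0.10 for *Hbb-bs*, -0.01 for *Hbb-bt* and -0.12 for *Alas2*, with SEs of 0.37 to 0.43. For *Epor* it was -0.44 (SE 0.25, adjusted p = 0.693, edgeR). That *Epor* passed in +/+ and not in Δ17/Δ17 mice is therefore not a tested difference between the genotypes. The comparisons share groups, so their values are not independent of each other.

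**Figure D2:**
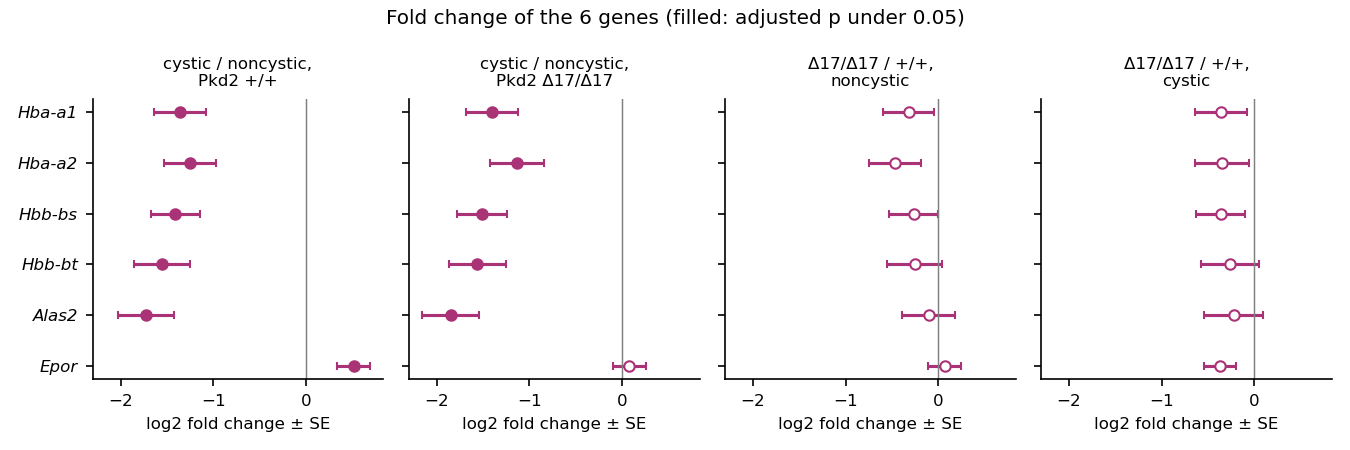
Log2 fold change ± SE (horizontal axes) of each of the 6 genes (rows) in the 4 comparisons (panels). Filled points passed the adjusted p threshold of 0.05: all 6 between cystic and noncystic +/+ kidneys, the 5 lower ones between Δ17/Δ17 kidneys, and none for the deletion.

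Summed over the 4 genes, globin mRNA came to 787.2 ± 188.3 CPM in noncystic +/+, 644.3 ± 335 in noncystic Δ17/Δ17, 299.3 ± 52.06 in cystic +/+ and 233.9 ± 42.81 in cystic Δ17/Δ17 kidneys (SD, n = 3 each). The noncystic mean was 2.63 times the cystic one in +/+ mice and 2.755 times in Δ17/Δ17 mice. The order of the groups was the same for each globin gene and for *Alas2*. The neighbours noncystic +/+ and noncystic Δ17/Δ17 overlapped, as did cystic +/+ and cystic Δ17/Δ17. Between noncystic Δ17/Δ17 and cystic +/+ mice, only *Hba-a2* overlapped among these 5 genes.

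The *Epor* groups had another order. Cystic +/+ kidneys had 14.2 ± 0.921 CPM, cystic Δ17/Δ17 10.99 ± 1.55, noncystic Δ17/Δ17 10.42 ± 2.6 and noncystic +/+ 9.936 ± 1.72 CPM. The last 3 overlapped each other.

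As a share of all counts, the globin genes took from 0.0204% in mouse 29 (95% Wilson interval 0.0197% to 0.021%) to 0.0999% in mouse 23 (0.09845% to 0.1013%). The intervals cover counting error only and are far narrower than the spread between mice of a group. In noncystic kidneys the 3 mice with the least globin, 24, 22 and 19, had 404.1, 501.9 and 576.6 CPM, and the other 3 had 845.7, 939.2 and 1027 CPM. The cystic kidneys ran from 194.9 to 345.9 CPM, with no mouse far from the others.

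Alpha and beta reads moved together. There were 1.44 to 2.11 beta reads per alpha read in the 12 kidneys, with means of 1.87, 1.97, 1.80 and 1.81 in noncystic +/+, noncystic Δ17/Δ17, cystic +/+ and cystic Δ17/Δ17 kidneys. Mouse 27 was the lowest of the 12, at 1.44. *Hbb-bt* held 8.67% to 12.1% of the beta reads and *Hba-a2* 11.0% to 17.8% of the alpha reads. The group means of the *Hbb-bt* share ran from 10.51% ± 1.71 in cystic +/+ to 11.66% ± 0.603 in noncystic +/+ kidneys, and those of the *Hba-a2* share were lowest in noncystic Δ17/Δ17 (12.28% ± 1.11) and highest in cystic Δ17/Δ17 kidneys, whose mice ran from 12.07% to 17.84% (SD, n = 3 each). The ranges of the mice overlapped in both cases. These shares depend on which reads could be placed in a single gene.

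Per kilobase of exon, the levels in noncystic +/+ kidneys were 590.4 ± 146 CPM for *Hbb-bs*, 291.7 ± 72.1 for *Hba-a1*, 84.74 ± 19.2 for *Hbb-bt*, 55.98 ± 7.43 for *Hba-a2*, 9.707 ± 3.32 for *Alas2* and 4.995 ± 0.862 for *Epor* (SD, n = 3). In cystic +/+ kidneys the lowest places were exchanged, with 2.926 ± 0.26 CPM per kilobase for *Alas2* and 7.141 ± 0.463 for *Epor*. Among single mice, *Epor* was above *Alas2* per kilobase in all 6 cystic kidneys and in mouse 24, and below it in the other 5 noncystic kidneys. For mouse 24 the values were almost equal, 6.555 against 6.525. The exon lengths include the stretches shared within each globin pair and those that *Alas2* shares with *Apex2*. Reads that lie wholly within stretches shared by a globin pair do not map to a unique place. Values per kilobase are therefore not strictly comparable between the 6 genes.

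*Alas2* followed the globins closely. There were 29.1 ± 3.6 *Alas2* reads per 1000 globin reads in noncystic +/+, 33.95 ± 4.91 in noncystic Δ17/Δ17, 24.2 ± 6.12 in cystic +/+ and 25.7 ± 0.819 in cystic Δ17/Δ17 kidneys. Once the mean of its group was subtracted from each mouse's log2CPM, *Alas2* correlated with the globin genes at Pearson's r of 0.62 to 0.91 over the 12 mice. The globin genes correlated with each other at 0.74 to 0.95 on the same scale, and *Epor* with the other 5 genes at -0.31 to 0.24. These are descriptions of genes counted in the same libraries, and the effect of sequence shared within a pair on the values of a pair was not tested.

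**Figure D3:**
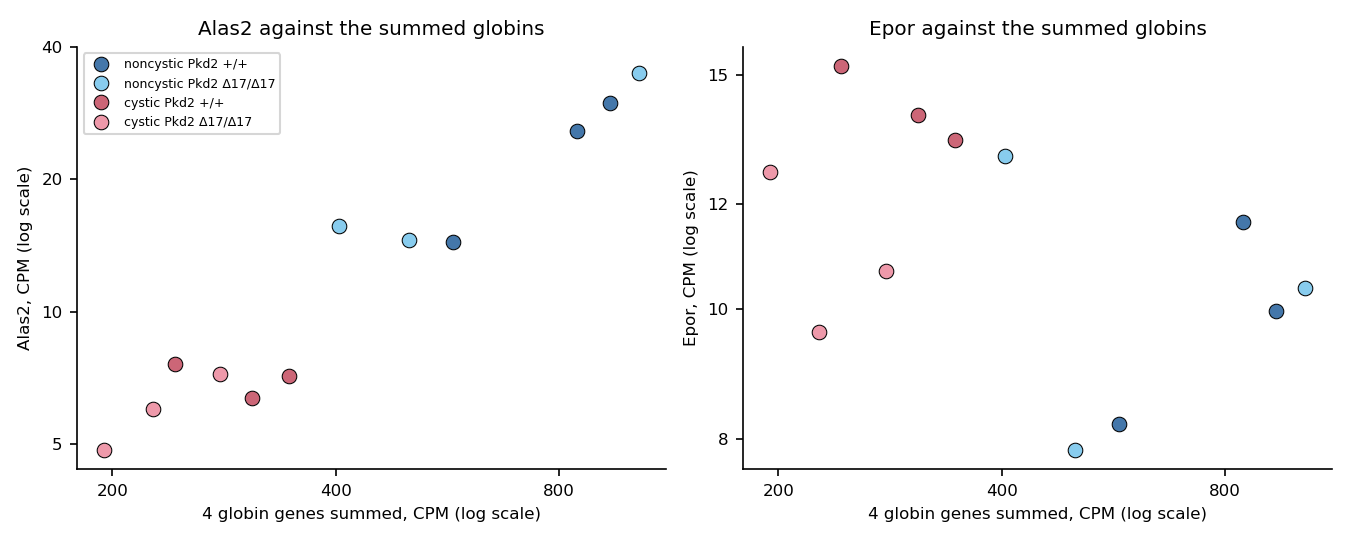
*Alas2* (left) and *Epor* (right) CPM against the summed CPM of the 4 globin genes, both axes on a log scale, with 1 point per mouse coloured by group. *Alas2* rises with the globins from the cystic kidneys (194.9 to 345.9 CPM of globin) to mouse 23 (1027 CPM), and *Epor* shows no such line.

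The genes most like the globins in this within-group pattern were *Elf2* (r = 0.95), *Phf23* (0.92), *H2-M3* (0.91), *Zfp456* (0.90), *Zscan12* (0.89), *Ighmbp2* (0.89), *Zfp12* (0.88) and *Xlr* (0.88), out of 16827 genes ranked over 12 mice. Without the subtraction, r over all 12 mice ran from -0.55 (*Elf2*) to 0.10 (*H2-M3*) for these 8 genes, against 0.96 for *Alas2*. *Alas2* held rank 18 and *Epor* rank 10014. The genes most like *Epor* were *Dmrtc1a* (0.94), *Scamp5* (0.93), *Tmem185b* (0.92), *Fn3krp* (0.92), *C230037L18Rik* (0.92), *Btbd10* (0.90), *Tjp3* (0.90) and *Xlr3b* (0.90), of 16830 ranked. Without the subtraction, r with *Epor* over all 12 mice was 0.95 for *Scamp5*, 0.90 for *Tjp3*, 0.76 for *Xlr3b* and 0.71 for *Btbd10*, and from -0.24 to 0.41 for the other 4. Both sets of 8 were picked as the highest of all genes ranked, and subtracting the group means leaves 8 residual degrees of freedom. How high r would run from that selection alone was not tested.

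*Epo*, which encodes the hormone that binds the *Epor* product, fell in cystic kidneys of both genotypes, unlike *Epor*. It had 4.31, 5.817 and 8.546 CPM in noncystic +/+ mice and 0.2323, 0 and 0.04708 CPM in cystic +/+ mice, the latter from 6, 0 and 1 counts. Noncystic Δ17/Δ17 mice had 0.5994, 3.873 and 6.987 CPM and cystic Δ17/Δ17 mice 0.9134, 0.8314 and 0.2405 CPM. The +/+ groups were far apart, whereas mouse 22 of the noncystic Δ17/Δ17 group lay among the cystic mice. The log2 fold change was -5.84 (SE 0.84, adjusted p = 4.4e-05) in +/+ and -2.52 (SE 0.66, adjusted p = 0.0101) in Δ17/Δ17 mice by edgeR, and the latter call was lost without mouse 24 (adjusted p = 0.0865) and with limma-trend (adjusted p = 0.0529). In the annotation, *Epo* shares exon sequence with *Gnb2* on the same strand.

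**Figure D4:**
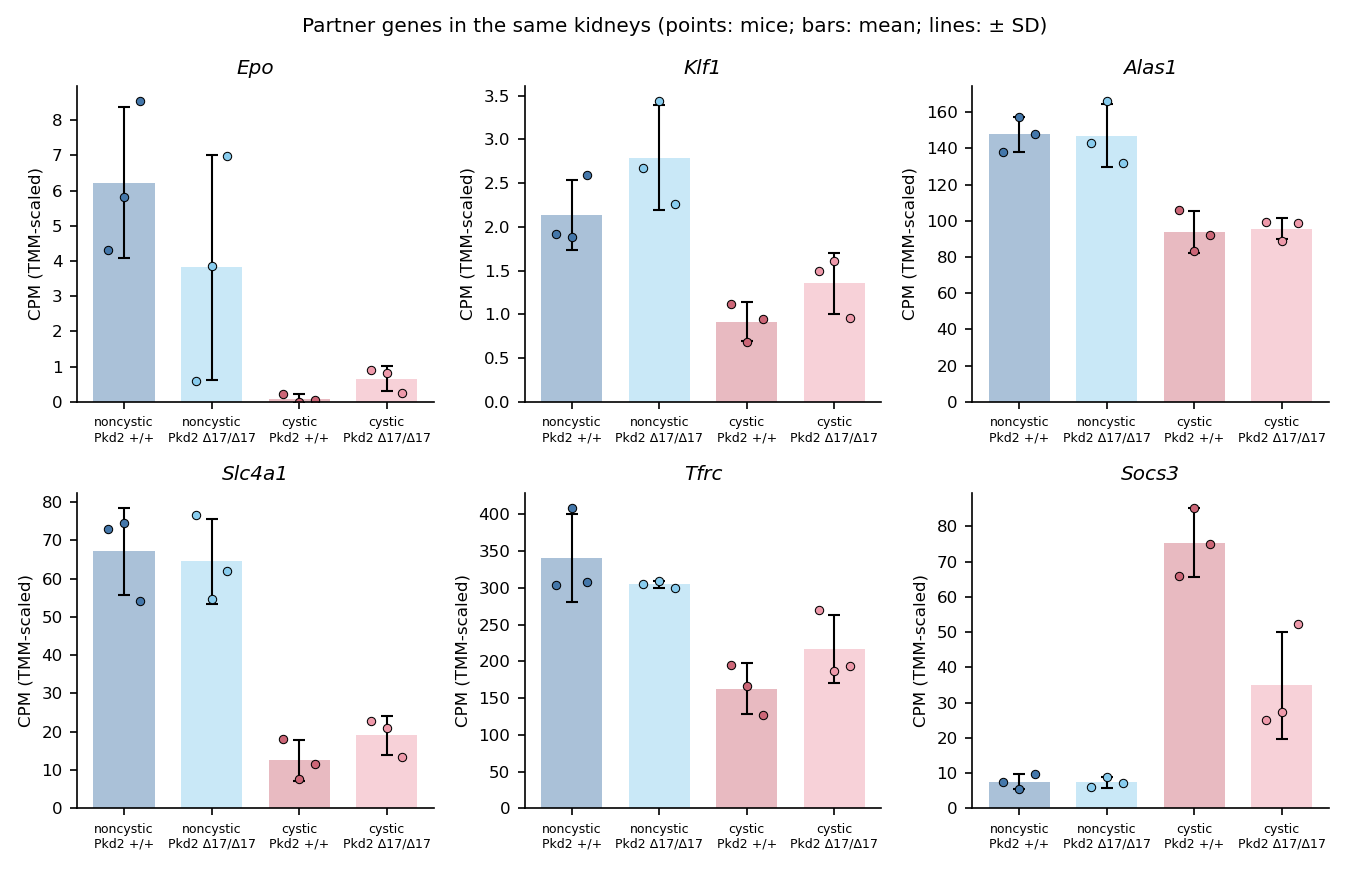
CPM (vertical axes, from 0, each panel on its own scale) of *Epo*, *Klf1*, *Alas1*, *Slc4a1*, *Tfrc* and *Socs3* in the 4 groups. Points are mice, bars the mean and lines ± SD (n = 3). *Epo* is near 0 in cystic +/+ kidneys (0 to 0.2323 CPM) and *Socs3* is highest there (65.86 to 85.38 CPM).

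Of 11 genes of erythropoietin signalling other than *Epor*, 6 rose and 1, *Epo*, fell between cystic and noncystic +/+ kidneys, with a median log2 fold change of 0.36 beside 0.02 over all genes tested. The list and all those below were chosen with earlier results of these data known. Over all genes tested, 14.2% were called lower and 16.9% higher between the +/+ groups. Between the Δ17/Δ17 groups the shares were 10.2% lower and 12.8% higher. *Socs3*, a feedback inhibitor of JAK-STAT signalling that many cytokines induce, had 5.475 to 9.716 CPM in noncystic and 65.86 to 85.38 CPM in cystic +/+ kidneys, with no overlap (log2 fold change 3.31, SE 0.26, adjusted p = 1.03e-07, edgeR). *Erfe* (erythroferrone, a regulator of hepcidin) rose by 1.69 and *Csf2rb* (a shared cytokine receptor chain) by 1.04 on the log2 scale. *Cish*, *Kit* and *Jak2* were the others that rose, and the calls of *Erfe*, *Kit* and *Jak2* were lost without 1 of several single mice (highest adjusted p of 0.1004, 0.1226 and 0.0934, edgeR). In Δ17/Δ17 kidneys *Socs3*, *Cish* and *Lyn* rose and *Epo* fell, but *Cish* lost its call in 7 and *Lyn* in 4 of 16 alternatives (highest adjusted p of 0.177 and 0.0732, edgeR). With the deletion in cystic kidneys 2.23% of all genes tested were called. *Socs3* was the 1 gene of the 11 that passed the test there, with 25.1 to 52.34 CPM (log2 fold change -1.11, adjusted p = 0.0191, edgeR). That call was lost without any 1 of mice 26, 27, 28 and 29 and when the 2 cystic groups were fitted alone (highest adjusted p of 0.117, edgeR).

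Genes of the red cell membrane moved in both directions. Of 17 in the table, 14 were tested, and in +/+ kidneys 4 fell (*Slc4a1*, *Dmtn* and *Epb41* among them) and 2 rose (*Kel*, *Sptb*), with a median log2 fold change of 0.15. The shares over all genes tested were 14.2% lower and 16.9% higher in +/+ kidneys, and 10.2% lower and 12.8% higher in Δ17/Δ17 kidneys. *Slc4a1*, the anion exchanger of the red cell and also of acid-secreting cells of the collecting duct, had 54.07 to 74.48 CPM against 7.686 to 18.12 CPM (log2 fold change -2.41, SE 0.25, adjusted p = 1.43e-06, edgeR). *Epb42* (8 to 28 counts per library) was not called, *Rhag* had at most 2 counts and was not tested, and *Icam4* and *Cldn13* were at 0 in all 12 mice. In Δ17/Δ17 kidneys *Slc4a1*, *Dmtn* and *Epb41* fell and *Sptb* rose, and the call of *Epb41* was lost in the 2 alternatives with library totals (highest adjusted p of 0.0581). In +/+ kidneys the call of *Sptb* was lost without any 1 of mice 19, 21 and 26, that of *Kel* without mouse 19 or 27, and that of *Epb41* in 4 of 16 alternatives (highest adjusted p of 0.169, 0.0626 and 0.210, edgeR). The call of *Sptb* in Δ17/Δ17 kidneys was lost without any 1 of mice 23, 24, 28 and 29.

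Of 9 erythroid transcription factor genes, 7 were tested. *Klf1*, the activator of adult beta-globin, had 1.921, 1.882 and 2.594 CPM in noncystic and 1.123, 0.6854 and 0.9417 CPM in cystic +/+ kidneys, and fell by 1.20 on the log2 scale (SE 0.30, adjusted p = 0.00518, edgeR). It also fell in Δ17/Δ17 kidneys (-1.04, adjusted p = 0.0146, edgeR), a call lost without mouse 23 or mouse 30. *Lmo2* fell as well in +/+ kidneys, a call lost in 6 of 16 alternatives. *Myb* (2.47), *Bcl11a* (1.61) and *Zfpm1* (0.53), named with their log2 fold changes, rose there. The same 3 also rose in Δ17/Δ17 kidneys (1.69, 1.085 and 0.36), where *Klf1* was the 1 gene that fell. Of these 3, *Myb* kept its call in all 15 alternatives, while *Bcl11a* lost it in 9 of 15 and *Zfpm1* in 5 of 16. *Myb* and *Bcl11a* are also known from white blood cells. The median of the 7 was 0.53 in +/+ kidneys, where the shares called over all genes were 14.2% lower and 16.9% higher. It was 0.36 in Δ17/Δ17 kidneys, where the shares were 10.2% lower and 12.8% higher. *Gata1*, the master regulator of the lineage, was at 0 in all 12 mice.

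Genes of late red cells and reticulocytes were mostly not called: of 12 tested, *Tent5c* (-0.71) and *Fbxo7* (-0.62) fell in +/+ kidneys, on the log2 scale, and none rose, with a median of -0.22. Among all genes, 14.2% were called lower and 16.9% higher in +/+ kidneys, and 10.2% lower and 12.8% higher in Δ17/Δ17 kidneys. *Tent5c*, *Fbxo7*, *Isg20* and *Tspan33* fell in Δ17/Δ17 kidneys, of which *Isg20* and *Tspan33* lost the call in 7 of 16 alternatives each. Embryonic and other globin genes were close to absent. Of 7, *Hbq1a* and *Hbq1b* were tested and not called, and the others had at most 1 count in any library.

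Haem synthesis genes other than *Alas2* gave smaller fold changes. Of 12 tested, 5 fell and none rose in +/+ kidneys, with a median log2 fold change of -0.26: *Alas1* (-0.66), *Urod* (-0.41), *Fech* (-0.34), *Slc25a38* (-0.31) and *Cpox* (-0.27). Over all genes tested, 14.2% were called lower and 16.9% higher in +/+ kidneys, and 10.2% lower and 12.8% higher in Δ17/Δ17 kidneys. *Alas1*, the form of the *Alas2* enzyme found in all tissues, had 137.9, 157.5 and 147.8 CPM in noncystic and 105.8, 83.17 and 92.24 CPM in cystic +/+ mice, without overlap (adjusted p = 7.3e-05, edgeR). *Fech* encodes the enzyme that inserts iron into haem. The calls of *Slc25a38* and *Cpox* were lost in 7 and 6 of 16 alternatives. In Δ17/Δ17 kidneys *Alas1*, *Urod* and *Uros* fell, but *Uros* lost its call in 4 of 16 alternatives and *Urod* in the 2 with library totals (highest adjusted p of 0.1215 and 0.0536). None of the 12 passed with the deletion in either setting, beside 0.00406% of all genes in noncystic and 2.23% in cystic kidneys.

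Of 18 genes that handle iron and free haem, 7 fell and 4 rose in +/+ kidneys, with a median of -0.03. The shares over all genes were 14.2% lower and 16.9% higher. *Tfrc*, the transferrin receptor through which red cell precursors and other cells take up iron, had 304.5 to 409.3 CPM in noncystic and 127 to 195.5 CPM in cystic +/+ kidneys (log2 fold change -1.06, SE 0.16, adjusted p = 5.78e-05, edgeR). *Lrp2* (-1.26) and *Cubn* (-1.18), the endocytic receptors of the proximal tubule, fell most on the log2 scale. The genes that rose were *Hp* (2.06), the haemoglobin-binding haptoglobin, *Cd163* (1.03), its macrophage receptor, *Hmox1* (0.91), which breaks haem down, and *Lrp1* (0.36), whose call was lost in 4 of 16 alternatives (highest adjusted p of 0.171). With the deletion in cystic kidneys 2.23% of all genes tested were called. Of the 18, *Hp* fell there from 31.04 to 102.5 CPM in +/+ mice to 3.472 to 24.34 CPM in Δ17/Δ17 mice (log2 fold change -2.60, adjusted p = 0.0174, edgeR). *Lrp2* (0.64) and *Cubn* (0.59) rose. The calls of *Hp*, *Lrp2* and *Cubn* were lost in 4, 5 and 7 of 16 alternatives. In Δ17/Δ17 kidneys 7 fell and none rose between cystic and noncystic mice, beside 10.2% of all genes lower and 12.8% higher. In that comparison *Tfrc* had 300.4 to 309.5 CPM in noncystic and 187 to 269.7 CPM in cystic mice, and its call (-0.49, adjusted p = 0.0309, edgeR) was lost with library totals and with limma-trend. It was also lost without any 1 of mice 22, 23, 24, 29 and 30 (adjusted p from 0.0591 to 0.136, edgeR).

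Other cell types moved with the same groups. Of 12 endothelial genes, 8 fell and none rose in +/+ kidneys (median log2 fold change -0.61), led by *Emcn* (-1.01), *Tek* (-0.88) and *Flt1* (-0.76), and the summed level of the list ran from 1608 to 1788 CPM in noncystic and from 1052 to 1280 CPM in cystic mice. Of 10 kidney tissue genes, 7 fell (median -1.29), led by *Slc12a3* (-1.70), *Kap* (-1.52) and *Nphs1* (-1.44), which mark distal tubule, proximal tubule and podocytes, and their sum was 18440 to 19310 against 7853 to 10940 CPM. No gene of these lists was at 0. Among all genes tested, 14.2% were called lower and 16.9% higher. The part of vessel content and of tissue composition in the globin values was not tested.

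In the lists of other blood cells, the genes called in +/+ kidneys were 4 of 12 for lymphocytes (3 higher, 1 lower), 2 of 11 for platelets (1 in each direction) and 0 of 10 for neutrophils, beside 31.1% of all genes. Differences between these lists were not tested. Of the 10 neutrophil genes tested, none was called by edgeR in +/+ kidneys and 2 had an unadjusted p under 0.05, and the summed level was 4.277 to 6.335 CPM in noncystic and 4.308 to 5.791 CPM in cystic mice. The sum of the lymphocyte list was 11.52 to 14.54 against 9.989 to 12.34 CPM, and that of the platelet list 18.16 to 24.86 against 24.77 to 26.74 CPM. Of the neutrophil list, *Mpo* and *Elane* had at most 4 counts in any library, while *S100a8* and *S100a9* reached 23 and 27.

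**Figure D5:**
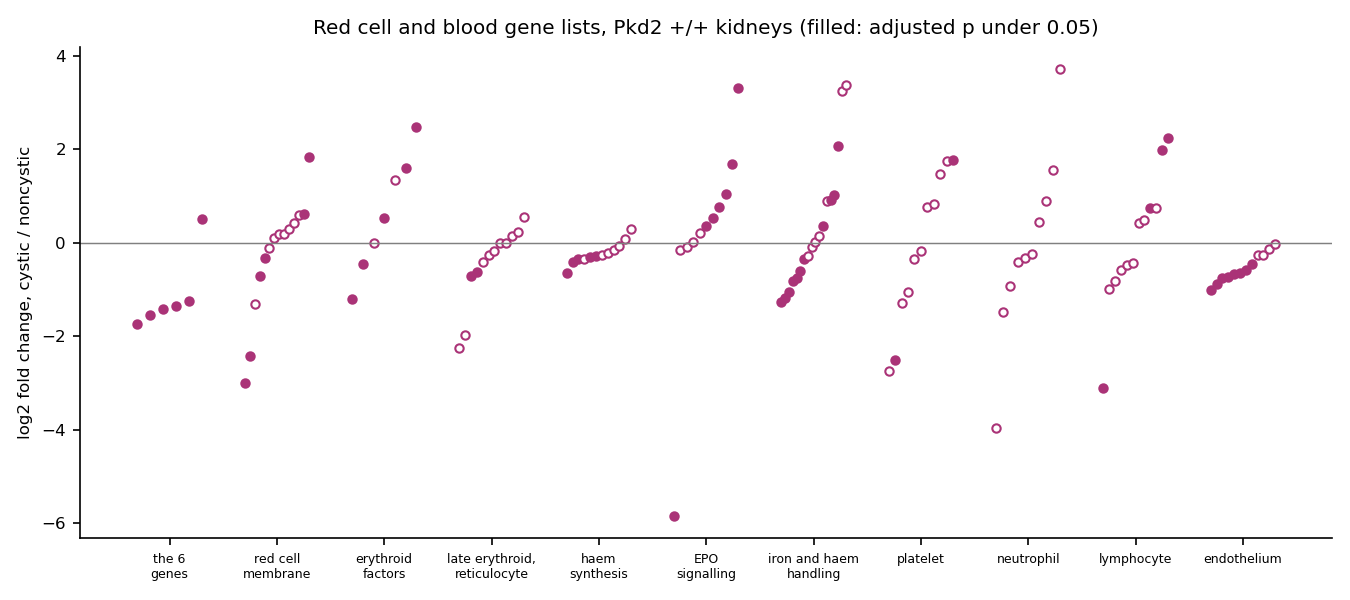
Log2 fold change between cystic and noncystic *Pkd2* +/+ kidneys (vertical axis) for the 6 genes and for the tested genes of 10 lists (horizontal axis), sorted within each list, with 1 point per gene. Filled points passed the adjusted p threshold of 0.05. The 5 lower members lie between -1.73 and -1.25, *Epo* at -5.84, and 8 of 12 endothelial genes are filled and below 0.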

How the data were processed

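Raw counts per gene were deposited for 12 mice, made by the authors with STAR 2.5.3a on GRCm38 after trimming with Trim Galore 0.6.3. The strand setting of the counting is not given in the sources used here. Totals per mouse and genes of the lowest counts limit the precision, as given in the report. All 12 columns were matched to mice by label. In R 4.3.3, edgeR 4.0.16 was run with TMM factors on all 12 mice, with a mean for each group and 8 residual degrees of freedom. Genes below an average log2CPM of -3 (prior count 2) were left out. Its quasi-likelihood test was adjusted by Benjamini-Hochberg over all genes, with a threshold of 0.05, and the script was tested on simulated data. Coordinates and lengths came from GENCODE M21, and promoters from RefSeq. Named were the 6 genes, list genes called between +/+ groups (up to 3 a direction) or that define red cells, and the 8 genes closest to the globins and to *Epor*. The genes, lists and tests were chosen with earlier results of these data known. Alternatives were limma-trend (limma 3.58.1), DESeq2 1.42.0, other normalizations, cutoffs, samples, *Xist* as covariate, a threshold of 0.01 and leaving out each mouse. Those for *Epo*, *Klf1*, *Slc4a1*, *Socs3* and *Tfrc* were added after the data were seen. Some genes that the naming rule would name are not reported here.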

Additional observations from a re-analysis of the deposited data

How the results depend on the processing

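No paired analysis was possible because the mice of the 4 groups carry no shared numbers. With no cutoff on low counts, 1 member (*Hba-a2*, adjusted p = 0.036) was called for the deletion in noncystic kidneys and 2 (*Hba-a1* and *Hbb-bs*, adjusted p = 0.00344 and 0.00462) in cystic kidneys by edgeR, where the main count is 0. Genes called over the whole table then went from 1 to 124 from 549 to 1639 and, for the interaction, from 3 to 566, and the cause was not tested. The 549 became 1128 with DESeq2 and 167 with the compared groups alone, again with 0 members called. The lower values of the globins and *Alas2* between cystic and noncystic kidneys kept their direction in all 170 alternatives and lost the call in 1 (*Hba-a2* without mouse 23). Leaving out each mouse gave 5 to 6 members called in +/+, 4 to 5 in Δ17/Δ17 and 0 in the other comparisons. Leave-one-out ranges with a change of sign were, on the log2 scale, -0.63 to 0.11 (*Alas2*) and -0.12 to 0.22 (*Epor*) for the deletion in noncystic kidneys, -0.41 to 0.021 (*Hbb-bt*) for it in cystic kidneys, -0.10 to 0.27 (*Epor*) for cystic against noncystic Δ17/Δ17, and for the interaction -0.30 to 0.44 (*Hba-a1*), -0.19 to 0.61 (*Hba-a2*), -0.34 to 0.43 (*Hbb-bs*), -0.23 to 0.57 (*Hbb-bt*) and -0.33 to 0.41 (*Alas2*). The interaction also changed sign with limma-trend (0.023 for *Hba-a1*, 0.12 for *Hbb-bt*) and with *Xist* as covariate (0.22 for *Hbb-bt*). Summed globin over leave-one-out was 711 to 892.5, 453 to 764.5, 275.9 to 327.3 and 211 to 253.4 CPM in noncystic +/+, noncystic Δ17/Δ17, cystic +/+ and cystic Δ17/Δ17 kidneys. Library totals in place of TMM moved the median log2 fold change of all genes to 0.18 (+/+) and 0.15 (Δ17/Δ17) between cystic and noncystic kidneys, and *Epor* in +/+ to 0.68. With 3 mice a group, *Epor*'s call rested on single mice and that of *Epo* on few counts in cystic kidneys.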

Other observations

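Genes listed for platelets and lymphocytes, cells also carried by blood, were called in both directions. The part of blood cells in these values was not tested. *Pf4*, a chemokine stored in platelets and also made by macrophages, had 3.377 ± 0.739 CPM in noncystic and 11.5 ± 1.1 CPM in cystic *Pkd2* +/+ kidneys (SD, n = 3 each) and rose by 1.77 on the log2 scale (adjusted p = 2.31e-06, edgeR). It also rose in Δ17/Δ17 kidneys (1.43, adjusted p = 4.81e-05, edgeR). *Clec1b*, a platelet receptor, went the other way in +/+ kidneys (-2.50, adjusted p = 0.000458, edgeR), with 2.953 ± 1.2 against 0.5125 ± 0.105 CPM, and was not called in Δ17/Δ17 kidneys. It shares exon sequence with *Clec9a* on the same strand. These were the 2 called genes of the 11 platelet genes tested.

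Among 12 lymphocyte genes, *Cd3g* (2.24), *Cd2* (1.99) and *Cd4* (0.74) rose and *Cd8a* (-3.11) fell in cystic +/+ kidneys, named with their log2 fold changes. *Cd8a* had 4.771 ± 1.47 CPM in noncystic and 0.5488 ± 0.232 CPM in cystic mice, while *Cd3g* stood at 0.1259 ± 0.0654 and 0.6147 ± 0.127 CPM. In the noncystic mice *Cd8a* was thus far above *Cd3g*, a gene of all T cells. Which cells the *Cd8a* reads came from was not tested. In Δ17/Δ17 kidneys only *Cd8a* was called among the 12 (-1.36, adjusted p = 0.0035, edgeR), beside 10.2% of all genes lower and 12.8% higher. Of 10 neutrophil genes tested, *Csf3r* was called in Δ17/Δ17 kidneys (0.83, adjusted p = 0.0469, edgeR) and lost the call in 7 of 16 alternatives. The calls of *Cd2* and *Cd4* in +/+ kidneys were lost in 2 of 15 and 6 of 16 alternatives, and *Cd2* and *Cd3g* rest on at most 16 counts a library in those mice.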
